A study of Mus musculus with 18 samples.

Results

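The small nuclear RNAs (snRNAs) of the spliceosome and the U7 snRNA were examined in Hydro-tRNA-seq libraries of mouse hippocampus. They were taken by name from the table of normalized read counts: every entry called Rnu followed by 1, 2, 4, 5, 6, 7, 11 or 12 was included, and Rnu3 and Rnu73 were not. The rule found 11 of 3574 entries. Rnu1b2 held almost the same reads as Rnu1b1, so 10 entries remained once copies were counted once, of 3250 in the whole table. They were Rnu1a1, Rnu1b1 and Rnu1b6 (U1), Rnu2-10 (U2), Rnu5g (U5), Rnu6 and Rnu6-ps2 (U6), Rnu7 (U7), Rnu11 (U11) and Rnu12 (U12). All 10 passed the filter on low values, a mean over the 18 mice of at least 1 read per 1000000 reads of the library (RPM), which 1381 entries passed. No entry used here bore the name of U4, U4atac or U6atac.

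All mice were male, received the virus in both hippocampi (CA1 and dentate gyrus) at 6 months of age and were killed 4 weeks later, with 1 library per mouse. The WT shCT (n = 5) and WT shRTP801 (n = 4) mice were wild type on a B6SJL background, and the 5xFAD shCT (n = 3) and 5xFAD shRTP801 (n = 6) mice were of the 5xFAD line, a transgenic mouse model of Alzheimer's disease. The shCT mice carried rAAV2/8-H1-shControl-RSV-GFP and the shRTP801 mice rAAV2/8-H1-shRTP801-RSV-GFP, so all 4 groups share the surgery, the neuron-targeted vector and GFP, and no group was left uninjected. The virus was directed at neurons while RNA came from the whole dissected hippocampi, where a lower number of cells of a type and less RNA per cell cannot be told apart. The messenger RNA of RTP801 is not among these small RNAs, so its silencing could not be checked here. The 4 comparisons share groups with one another, and their values are therefore given side by side.

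The major spliceosome removes most introns from pre-mRNA. U1 pairs with the 5′ splice site and U2 with the branch site, and U6, which arrives with U4 and U5, forms the catalytic centre together with U2. A rare class of introns is removed by the minor spliceosome, where U11 and U12 take the places of U1 and U2 while U5 is used by both. U7 does not take part in splicing: it pairs with histone pre-mRNA and guides the cut that forms the 3′ end. In the present comparison U1, U2 and U6 were counted as major members (6 entries), U11 and U12 as minor members (2 entries), U5 as shared, and U7 as neither.

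The RNA was cut from a gel at 60 to 100 nucleotides, the size of tRNAs, and then broken by hydrolysis. U7 is about as short as a tRNA, whereas U1, U2, U5, U11 and U12 are longer than this window, so for these the reads come from pieces or from molecules that ran outside their size. Whether the share of such molecules differed between libraries was not tested. Levels are given in RPM, and since gene lengths were not used here, levels of different snRNAs are compared as shares of reads and not as numbers of molecules.

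The libraries held 18122918 to 34484970 reads, which makes 1 read worth 0.0290 to 0.0552 RPM. Of the brain RNAs looked for, 3′ reads of tRNA-Arg-TCT-4, a tRNA gene of the nervous system, were present in 18 libraries and Snord116 in 15. Whole-length reads of tRNA-Arg-TCT-4 were seen in 1 library. The brain microRNAs had few reads: the entries of Mir124a, Mir9 and Mir128 had medians of 0 to 0.070 RPM, with reads of Mir9-1 in 4 libraries and of Mir128-2 in 11. The endothelial Mir126a was as low, with a median of 0.049 RPM and a highest level of 0.488 RPM. Of the oligodendrocyte pair, Mir219a-2 had a median of 11.03 RPM and Mir338 a median of 0 with at most 0.258 RPM. Snord115, also looked for as a brain RNA, and the names looked for as marks of blood, liver and muscle matched no entry used here. A set of 3 libraries stood apart, namely WT shCT mouse 5, WT shRTP801 mouse 4 and 5xFAD shRTP801 mouse 7. In these, mt-tRNAs took 0.00315% to 0.435% of the reads, against 8.59% to 39.8% in the other 15, and other small RNA genes (neither tRNA nor mt-tRNA) took 0.113% to 0.565%, against 3.96% to 33.9%. They held 248 to 2031 snRNA reads, whereas the other 15 held 24341 to 335188. None of them is a 5xFAD shCT mouse. Results are therefore also given without these 3 libraries, a choice made after their values were seen.

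U2 held most of the snRNA reads. In WT shCT mice, Rnu2-10 stood at 1542, 4.64, 2330, 738 and 4828 RPM in mice 3, 5, 6, 11 and 15. In WT shRTP801 mice it stood at 66.3, 2824, 4657 and 3003 RPM in mice 4, 10, 17 and 21. In 5xFAD shCT mice it stood at 3911, 5561 and 4867 RPM in mice 1, 16 and 18. In 5xFAD shRTP801 mice it ran from 21.2 RPM in mouse 7 to 3382 RPM in mouse 8, with a median of 2485. The 5xFAD shCT mice were thus all above the 6 5xFAD shRTP801 mice, while each WT group overlapped both 5xFAD groups. A further 5 unnamed genes are folded into Rnu2-10 as near-identical copies.

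U1 was carried by 3 entries. The Rnu1a1 entry, the U1 gene with the most reads (433105 over all libraries), stood at 435, 4.03, 701, 152 and 2700 RPM in WT shCT mice 3, 5, 6, 11 and 15. In WT shRTP801 mice 4, 10, 17 and 21 it stood at 15.4, 869, 1453 and 1465 RPM. It reached 1139, 1028 and 1686 RPM in 5xFAD shCT mice 1, 16 and 18. The 5xFAD shRTP801 mice ran from 5.84 to 1086 RPM with a median of 731, and their upper end lay within the 5xFAD shCT range. Rnu1b1 and Rnu1b6 belong to the embryonic type of mouse U1, and they held 103376 and 81943 reads. Summed over the libraries, the reads of this pair differed by 21.01% of those of Rnu1b1, so how the counting split reads between them is uncertain. Rnu1b1 ran from 73.1 to 464 RPM over the 15 libraries and Rnu1b6 from 78.2 to 346 RPM, the narrowest range of the 10 snRNAs (4.43-fold). Over the 15 libraries Rnu1b1 gave 158 to 620 reads per 1000 Rnu1a1 reads, lowest in WT shCT mouse 15 and highest in 5xFAD shRTP801 mouse 12. The WT shCT and the 5xFAD shRTP801 group each held both low and high values of this ratio.

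U6 varied most. Rnu6 stood at 24.4, 98.2, 2.35 and 59.0 RPM in WT shCT mice 3, 6, 11 and 15, and at 101, 38.3 and 51.6 RPM in WT shRTP801 mice 10, 17 and 21. It stood at 170, 66.3 and 37.0 RPM in 5xFAD shCT mice 1, 16 and 18, and ran from 16.2 to 151 RPM in the 5xFAD shRTP801 mice other than mouse 7. The highest of the 15 libraries exceeded the lowest 72.1-fold, and every group held levels found in the others. That lowest level, in WT shCT mouse 11, rests on 49 reads, and the next lowest was 16.2 RPM. The 3 libraries that stand apart held 0 or 1 Rnu6 read, where 0 reads, taken as a floor of 3 reads, allow up to 0.151 RPM in WT shCT mouse 5 and 0.159 RPM in 5xFAD shRTP801 mouse 7. As many as 23 unnamed genes share the reads of Rnu6 as copies. Rnu6-ps2, named as a U6 pseudogene, ran from 2.31 to 28.9 RPM over the 15 libraries (12.5-fold) and had 0 reads in the 3 others. In these 15 it gave 142 to 980 reads per 1000 Rnu6 reads, so the pair did not move in a fixed proportion.

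Rnu5g carries U5, which holds the exons in place in both spliceosomes. It stood at 147, 0.302, 377, 57.1 and 1014 RPM in WT shCT mice 3, 5, 6, 11 and 15, and at 2.42, 745, 549 and 800 RPM in WT shRTP801 mice 4, 10, 17 and 21. The 5xFAD shCT mice stood close together at 617, 717 and 568 RPM. The 5xFAD shRTP801 mice ran from 0.212 to 610 RPM with a median of 452, and mouse 19 of this group lay within the 5xFAD shCT range.

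The minor spliceosome was represented mainly by U12. Rnu12 stood at 75.6, 3.13, 84.6, 50.4 and 471 RPM in WT shCT mice 3, 5, 6, 11 and 15, and at 13.3, 101, 216 and 351 RPM in WT shRTP801 mice 4, 10, 17 and 21. It stood at 150, 273 and 224 RPM in 5xFAD shCT mice 1, 16 and 18. In 5xFAD shRTP801 mice it ran from 8.38 to 273 RPM with a median of 142, so the top of this group was level with the top of the 5xFAD shCT mice. Rnu11 was close to the limit of detection, with 8 to 117 reads in the 15 libraries. Its level of 0.384 RPM in WT shCT mouse 11 rests on 8 reads and has a Wilson 95% interval of 0.195 to 0.758 RPM. Wilson intervals of single libraries cover counting error only. The highest level, 3.48 RPM in WT shCT mouse 15, rests on 117 reads with an interval of 2.90 to 4.16 RPM. In the minor spliceosome U11 and U12 act as a joint particle. Over the 15 libraries U11 gave 3.31 to 16.03 reads per 1000 U12 reads.

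Rnu7, which acts on histone pre-mRNA, spread more widely than U2. It stood at 143, 0.151, 489, 15.2 and 92.5 RPM in WT shCT mice 3, 5, 6, 11 and 15, and at 1.54, 128, 80.9 and 89.4 RPM in WT shRTP801 mice 4, 10, 17 and 21. In 5xFAD shCT mice 1, 16 and 18 it stood at 430, 104 and 401 RPM. In 5xFAD shRTP801 mice it ran from 0.106 to 459 RPM with a median of 109. Mouse 15, which had the highest U2 level of the WT shCT mice, was thus not the highest for U7. Over the 15 libraries the highest U7 level exceeded the lowest 36.1-fold, against 7.54-fold for U2. The 72.1-fold of Rnu6 rested on the low level of WT shCT mouse 11.

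**Figure D1:**
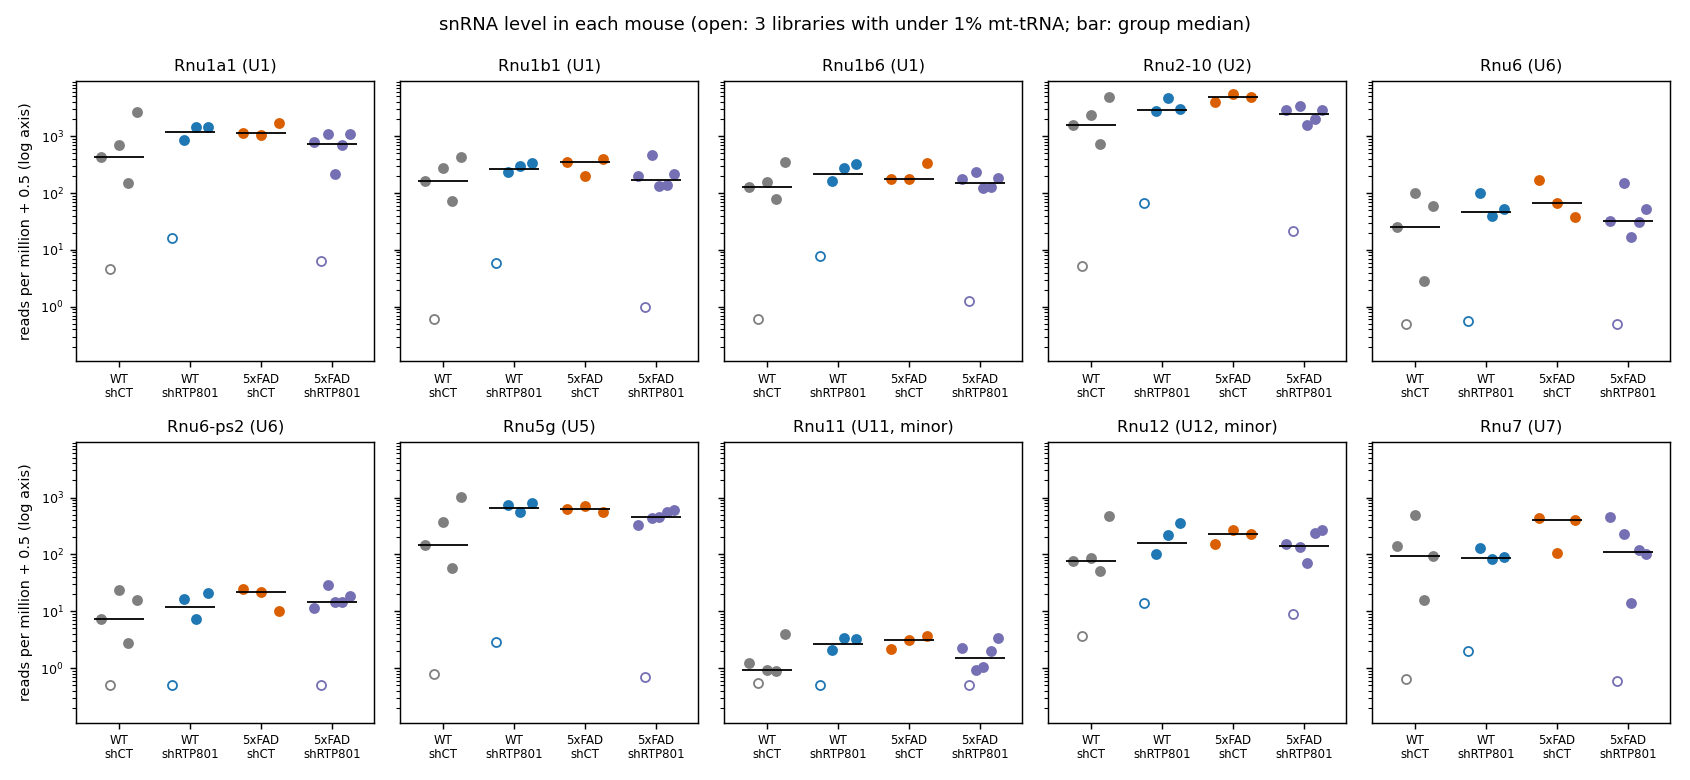
Level of each of the 10 snRNAs in every mouse, as RPM plus 0.5 on a log axis, by group. Each point is 1 mouse, bars are group medians, and open points are the 3 libraries with under 1% mt-tRNA, which lie at or near the bottom of each panel. The 5xFAD shCT points of Rnu2-10 (3911 to 5561 RPM) lie above all 5xFAD shRTP801 points (at most 3382 RPM), while in the other panels these groups overlap.

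The question of the first comparison was whether the snRNAs differ between 5xFAD and WT mice that received the control virus. Summed over the 10 entries, 5xFAD shCT mice had a mean snRNA level of 7882 ± 815 RPM (SD, n = 3). The mean of the WT shCT mice was 3666 ± 3902 RPM (SD, n = 5). The WT shCT mice ran from 12.5 to 9957 RPM and enclosed the 5xFAD shCT range of 6966 to 8529 RPM. In the fit with limma over all 1381 entries, 0 of the 10 snRNAs passed an adjusted p of 0.05, as did 0% of all entries, and 0 of the 10 had an unadjusted p under 0.05, against 3.19% of all entries. The edgeR quasi-likelihood test and DESeq2 on the recovered reads likewise called 0 of the 10, with 0 of them at an unadjusted p under 0.05 in either.

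The fitted log2 change was above 0 for 10 of 10 snRNAs, but 67.3% of all entries were also fitted higher in 5xFAD shCT mice. The median log2 change of the snRNAs was 2.40 in limma, beside 0.84 for all entries. It was smaller by edgeR, 0.81 beside 0.13, and by DESeq2, 0.84 beside 0.36. Both scale the libraries by factors of their own, unlike the RPM used with limma, so test and scaling differ at once. Rnu5g had the highest value, 3.05 ± 2.44 (SE), and Rnu2-10 followed with 3.03 ± 2.03, each with an adjusted p of 0.521 in limma. The minor members had lower values than U2: the log2 change of Rnu12 was 1.90 ± 1.37 and that of Rnu11 was 1.32 ± 0.77. Of the major members, Rnu6-ps2 at 1.74 ± 1.44 was also below Rnu12, and the rest were above it. The intervals of all 10 included 0. Major and minor members were not ordered alike without the 3 libraries that stand apart. Rnu12 (0.91) and Rnu11 (1.05) then lay above Rnu1b1 (0.64), Rnu1b6 (0.53) and Rnu6-ps2 (0.90), and below Rnu1a1 (1.08), Rnu2-10 (1.32) and Rnu6 (1.57).

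Without the 3 libraries that stand apart the medians of the log2 changes were 1.06 for the snRNAs and 0.32 for all entries, so the values moved by over 1.5 times. Leaving out WT shCT mouse 5 alone gave the snRNAs the same median. Again 0 of 10 passed the test by limma or edgeR (0 under an unadjusted 0.05 by edgeR), and 1 of 10 in limma, Rnu2-10 at a log2 change of 1.32 ± 0.57 (adjusted p = 0.426 in limma), had an unadjusted p under 0.05, against 10.9% of all entries. Mt-tRNA reads moved in the same direction, with a mean share of 33.5 ± 5.69% (SD, n = 3) for the 5xFAD shCT mice against 20.8 ± 9.46% (SD, n = 4) for the WT shCT mice other than mouse 5. Their part in the result was not tested. When the snRNA reads were instead set against the reads on other small RNA genes, the snRNA median was 0.53 with 8 of 10 fitted higher, and the median of all entries moved to -0.75. On that scale Rnu12 turned to -0.46 and Rnu11 to -0.041.

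Silencing of RTP801 in WT mice was the second comparison. The summed level was 4829 ± 3293 RPM (SD, n = 4) in WT shRTP801 mice, from 112 to 7574 RPM, all within the WT shCT range. With limma, 0 of 10 snRNAs were called at an adjusted p of 0.05 (0% of all entries), and 0 of 10 had an unadjusted p under 0.05 (1.52% of all entries). By edgeR and DESeq2, 0 of 10 were called and 0 had an unadjusted p under 0.05. All 10 were fitted higher, as were 63.4% of all entries, with a median log2 change of 0.85 beside 0.23. The medians by edgeR and DESeq2 were 0.24 and 0.25, with 9 of 10 above 0. This direction turned when 1 mouse alone was left out: without WT shCT mouse 5 the median was -0.54 with 1 of 10 fitted higher. Without WT shRTP801 mouse 4 it was 2.26. Without each of the other WT mice in turn it ran from 0.28 to 1.58. The values lay between 0.021 ± 1.98 (SE) for Rnu7 and 1.20 ± 2.24 for Rnu5g, and the lowest adjusted p was 0.995. Without the 3 libraries, WT shCT mouse 5 and WT shRTP801 mouse 4 among them, the median was 0.84 beside 0.31, with 9 of 10 fitted higher. Rnu5g then had a log2 change of 1.53 ± 0.69 with an unadjusted p of 0.0380 and an adjusted p of 0.324 in limma. It was 1 of 10 under an unadjusted 0.05, against 15.1% of all entries. Set against the reads on other small RNA genes, the median was -0.030 with 5 of 10 fitted higher, beside -0.37 for all entries.

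The third comparison asked whether the virus against RTP801 changed the snRNAs of 5xFAD mice. The summed level was 3877 ± 2260 RPM (SD, n = 6) in 5xFAD shRTP801 mice, from 36.9 to 6159 RPM, and every one of them lay below the lowest 5xFAD shCT mouse. Rnu2-10 was the single entry of the 10 whose groups did not overlap in RPM, lower in 5xFAD shRTP801 mice, where 3.48% of all entries did the same. Its mean was 2143 ± 1238 RPM (SD, n = 6) against 4780 ± 829 RPM (SD, n = 3), and its log2 change in the fit was -2.08 ± 1.96 (SE) with an adjusted p of 0.723 in limma. Mouse 7 had the lowest level of its group, so leaving it out could not make the groups of Rnu2-10 overlap. Without it 3.62% of all entries had such separate groups. The log2 change of Rnu2-10 was then -0.94 ± 1.73 with an adjusted p of 0.967 in limma. With all 3 of the libraries that stand apart left out of the fit, it was -0.94 ± 0.54 with an adjusted p of 0.444.

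In this comparison 0 of 10 snRNAs were called by limma (0% of all entries), and 0 of 10 had an unadjusted p under 0.05 (1.74% of all entries). EdgeR and DESeq2 also called 0 of 10, with 0 under an unadjusted 0.05. All 10 were fitted lower, as were 57.1% of all entries, with a median log2 change of -1.87 beside -0.25. By edgeR and DESeq2 the medians were -0.77 and -1.14, beside 0.17 and -0.30. The lowest was Rnu7 at -2.47 ± 2.09 (SE) and the nearest to 0 was Rnu6-ps2 at -0.91 ± 1.39. Without 5xFAD shRTP801 mouse 7 alone the median was -0.66. Without the 3 libraries it was also -0.66, beside 0.03, and Rnu6-ps2 stood at -0.07 ± 0.63.

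The lower U2 level of 5xFAD shRTP801 mice depended on what it was measured against. The 5xFAD shCT libraries had 22.4 ± 2.22% (SD, n = 3) of their reads on other small RNA genes, and the 5xFAD shRTP801 libraries other than mouse 7 had 15.1 ± 8.55% (SD, n = 5). For mt-tRNAs these shares were 33.5% ± 5.69 and 18.003% ± 8.96. Per 1000 reads on other small RNA genes, Rnu2-10 gave 19.7, 23.0 and 21.1 reads in 5xFAD shCT mice 1, 16 and 18. It gave 19.6, 33.5, 31.1, 11.5 and 10.6 in 5xFAD shRTP801 mice 2, 8, 12, 14 and 19. The means were then 21.2 ± 1.68 (SD, n = 3) and 21.3 ± 10.7 (SD, n = 5), and the 5xFAD shRTP801 mice lay on both sides of the 5xFAD shCT mice. With mouse 7, at 7.64, the 5xFAD shRTP801 mean was 19.0 ± 11.1 (SD, n = 6). The median of these 6 was 15.6, against 21.1 in the 5xFAD shCT mice. In the fit over all mice on this scale, the median log2 change was -0.47 for the snRNAs and 0.93 for all entries. Rnu12 was the 1 of 10 fitted higher, with a log2 change of 0.58.

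**Figure D2:**
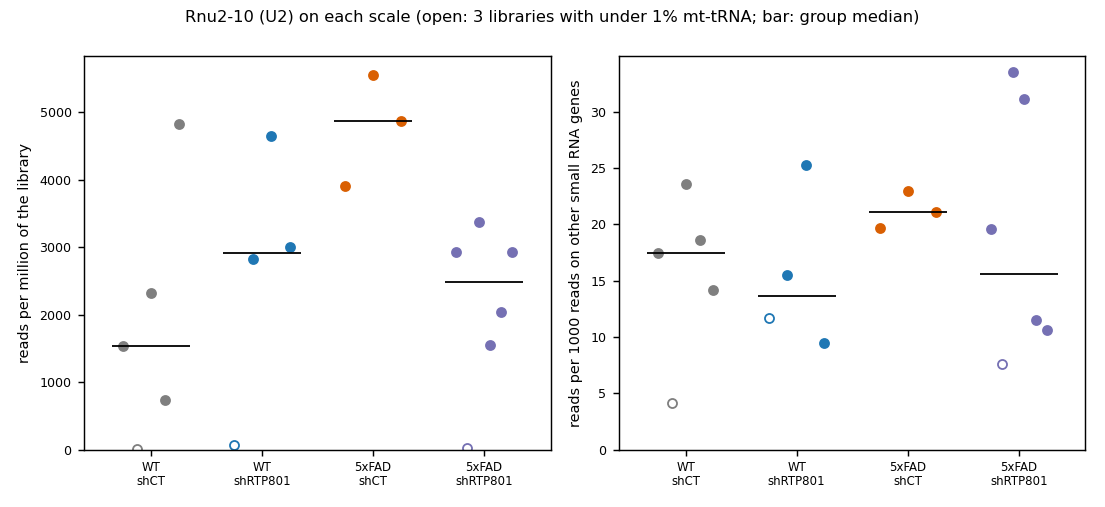
Rnu2-10 in every mouse, in RPM of the library on the left and per 1000 reads on other small RNA genes on the right, with linear axes from 0, bars for group medians and open points for the 3 libraries with under 1% mt-tRNA. The 5xFAD groups are separate on the left (3911 to 5561 against at most 3382 RPM) and overlap on the right (19.7 to 23.0 against 7.64 to 33.5).

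The fourth comparison set 5xFAD shRTP801 against WT shRTP801 mice. With limma 0 of 10 snRNAs were called (0% of all entries), and 0 of 10 had an unadjusted p under 0.05 (0.217% of all entries), and the counts by edgeR and DESeq2 were 0 and 0 as well. Rnu6-ps2, Rnu7 and Rnu6 were fitted higher, 3 of 10 against 55.7% of all entries, with log2 changes of 0.65 ± 1.27 (SE), 0.34 ± 1.90 and 0.13 ± 1.74. The median of the 10 was -0.17 beside 0.09 for all entries, and -0.29 and -0.64 by edgeR and DESeq2. Single mice turned it: it was 0.93 with 9 of 10 fitted higher without 5xFAD shRTP801 mouse 7, and 0.10, 0.35 and 0.38 without WT shRTP801 mice 10, 17 and 21. It was -1.58 with 0 of 10 higher without WT shRTP801 mouse 4, and ran from -0.50 to -0.30 without each of the other 5xFAD shRTP801 mice. Without the 3 libraries 2 of 10 were fitted higher, against 51.3% of all entries, and the median was -0.48 beside 0.02.

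The difference of the RTP801 effect between genotypes was tested as an interaction in the same fit. It was below 0 for 10 of 10 snRNAs and for 60.8% of all entries, with a median of -2.60 beside -0.70. The median was -1.04 by edgeR, with 1 of 10 above 0, and -1.35 by DESeq2. In limma it was -1.24 without WT shCT mouse 5, -1.44 without 5xFAD shRTP801 mouse 7, -3.99 without WT shRTP801 mouse 4 and -1.51 without all 3. With limma 0 of 10 passed an adjusted p of 0.05 (0% of all entries), the lowest adjusted p being 0.590, and 0 of 10 had an unadjusted p under 0.05 (6.52% of all entries). EdgeR and DESeq2 gave 0 and 0 for the 10. Without the 3 libraries edgeR called 0 of 1381 entries, whereas limma called 2.61% of all entries and 0 of 10 snRNAs. In that limma fit Rnu2-10 stood at -1.79 ± 0.78 (SE, adjusted p = 0.139) and Rnu11 at -1.78 ± 0.82 (SE, adjusted p = 0.153). These were the 2 of 10 with an unadjusted p under 0.05, against 30.2% of all entries. A value under 0 here means that the fitted effect of shRTP801 was lower in 5xFAD than in WT mice.

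**Figure D3:**
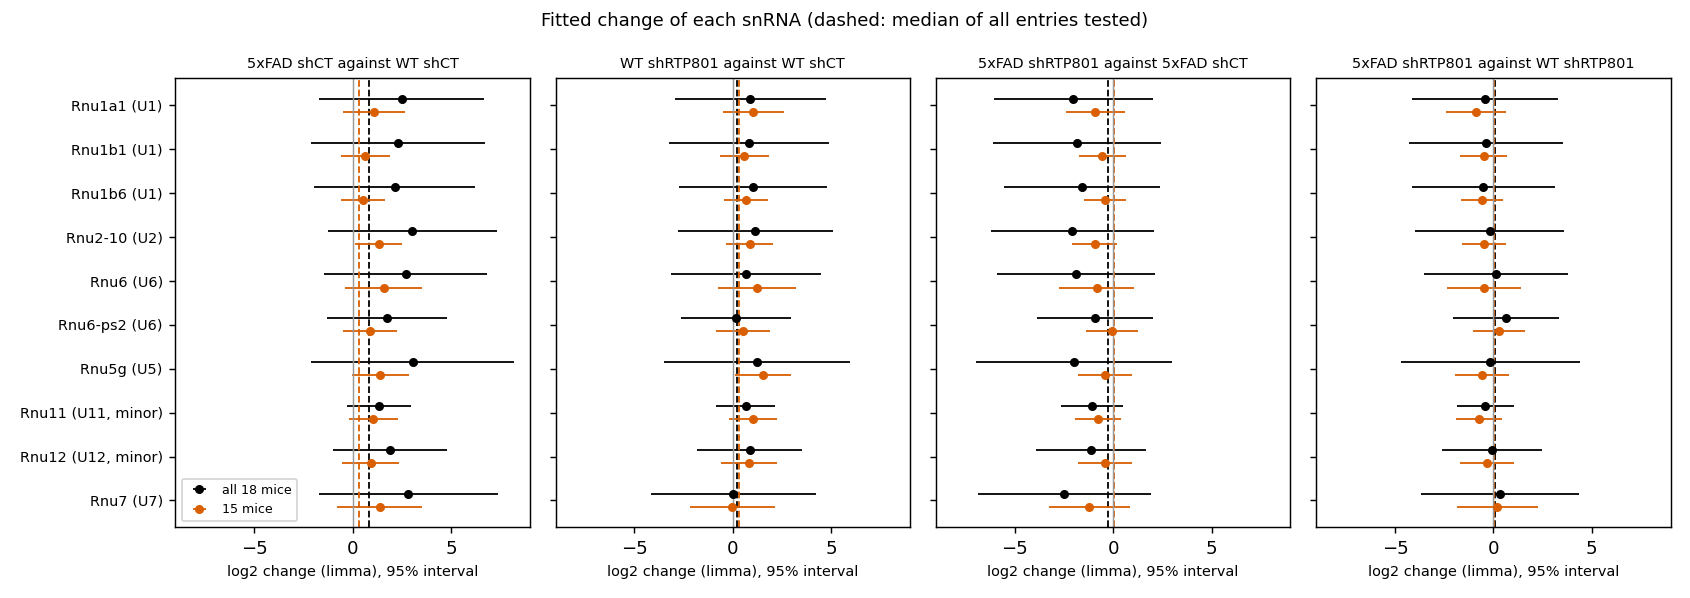
Log2 change of each snRNA in the 4 comparisons from limma, with 95% intervals, over all 18 mice (black) and over the 15 mice left without the 3 libraries with under 1% mt-tRNA (orange). Dashed lines are the median over the 1381 entries tested, in the same colours. In the first panel all 10 black points lie above 0, around a median of 2.40, and all their intervals include 0.

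Shares within the snRNA reads do not depend on the total of the library. Over the 15 libraries, Rnu2-10 took 55.2 ± 6.56% (SD, n = 4) of the snRNA reads in WT shCT mice and 54.2 ± 7.46% (SD, n = 3) in WT shRTP801 mice. The 5xFAD shCT mice gave 60.5 ± 6.73% (SD, n = 3), and the 5xFAD shRTP801 mice gave 55.6 ± 3.28% (SD, n = 5). The group means of U2 differed by less than the SD of the WT shCT, WT shRTP801 and 5xFAD shCT groups. The 5xFAD means differed by more than the SD of the 5xFAD shRTP801 group, 3.28. The U1 entries together took 28.2 ± 4.54% and 28.0 ± 4.45% in the WT shCT and WT shRTP801 groups, and 23.2 ± 5.60% and 24.2 ± 4.24% in the 5xFAD shCT and 5xFAD shRTP801 groups.

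Rnu5g, the shared U5, took 7.23 ± 2.48% and 11.3 ± 3.68% in the WT shCT and WT shRTP801 groups, and 8.104 ± 1.25% and 11.3 ± 4.76% in the 5xFAD shCT and 5xFAD shRTP801 groups. Relative to U2, this is 77.3 to 298 U5 reads per 1000 U2 reads. Group ranges overlapped: WT shRTP801 mouse 17 gave 118 and mice 10 and 21 gave 264 and 266, while WT shCT mouse 15 reached 210.

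**Figure D4:**
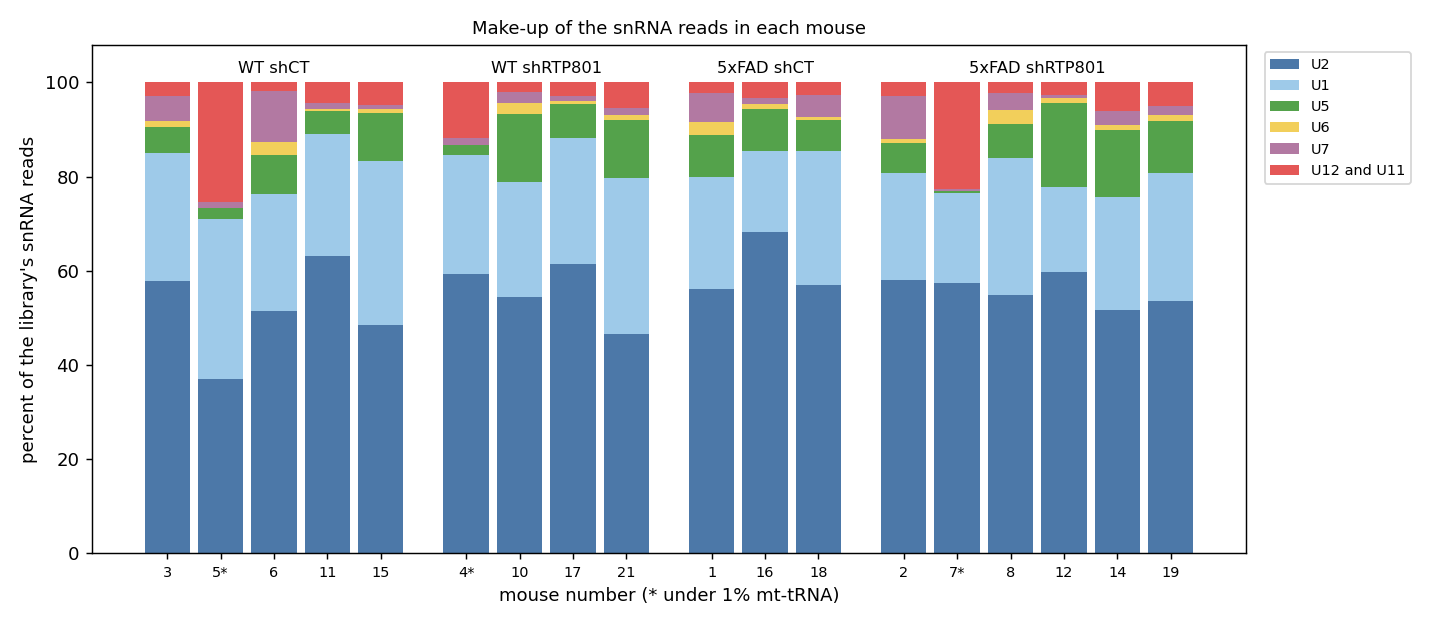
Percent of the snRNA reads of each library that came from U2, U1, U5, U6, U7 and the minor pair U12 and U11, by group and mouse number. U2 takes the most reads in every library, and in the libraries marked with an asterisk (mice 5, 4 and 7) the U12 part is 25.0%, 11.9% and 22.7%, against 1.87% to 6.02% in the other 15.

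Major and minor members were compared by their ratio within each library. The minor members gave 33.3, 23.8, 48.6 and 56.7 reads per 1000 major reads in WT shCT mice 3, 6, 11 and 15, and 24.3, 32.5 and 68.0 in WT shRTP801 mice 10, 17 and 21. They gave 26.3, 39.0 and 31.0 in 5xFAD shCT mice 1, 16 and 18. The 5xFAD shRTP801 mice 2, 8, 12, 14 and 19 gave 36.8, 25.0, 35.3, 78.7 and 61.6. The means were 40.6 ± 14.8 (SD, n = 4), 41.6 ± 23.2 (SD, n = 3), 32.1 ± 6.40 (SD, n = 3) and 47.5 ± 22.0 (SD, n = 5). All 4 ranges overlapped, and no test was run on this ratio. Each difference between means was below the larger SD of the groups compared. The differences from the 5xFAD shCT mean exceeded the SD of that group, 6.40. Over the 15 libraries the ratio spanned 3.32-fold, less than any snRNA alone.

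In the 3 libraries that stand apart the ratio was far higher, at 358, 141 and 297 reads per 1000 in WT shCT mouse 5, WT shRTP801 mouse 4 and 5xFAD shRTP801 mouse 7. Few reads carry these values: 63 minor against 176 major reads in mouse 5. Mouse 4 had 242 against 1717, and mouse 7 had 158 against 532. The part of the low read number in this was not tested. With them included, the difference of the mean log2 ratio was -0.19 for WT shRTP801 against WT shCT, and it changed to 0.45 without WT shCT mouse 5. For 5xFAD shRTP801 against WT shRTP801 it was 0.19 and changed to -0.27 without 5xFAD shRTP801 mouse 7. For 5xFAD shCT against WT shCT it was -0.92, and -0.28 without the 3 libraries. For 5xFAD shRTP801 against 5xFAD shCT it was 0.92, and 0.46 without them.

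Single snRNAs were also set against U2 over the 15 libraries. U12 gave 35.7 to 117 reads per 1000 U2 reads, a 3.28-fold range, close to that of the minor to major ratio. U6 gave 3.19 to 44.8, a 14.03-fold range. In this ratio 1 mouse of each group stood high, namely WT shCT mouse 6, WT shRTP801 mouse 10, 5xFAD shCT mouse 1 and 5xFAD shRTP801 mouse 8, at 42.2, 35.8, 43.4 and 44.8. The remaining 11 libraries lay between 3.19 and 17.6. U7 gave 8.77 to 210 reads per 1000 U2 reads, a 23.9-fold range, of which the highest was WT shCT mouse 6 and the lowest of the 15 was 5xFAD shRTP801 mouse 12. The group means of U7 per 1000 U2 were 85.6 ± 89.7 (SD, n = 4) in WT shCT, 30.9 ± 14.1 (SD, n = 3) in WT shRTP801, 70.3 ± 46.8 for 5xFAD shCT (SD, n = 3) and 65.3 ± 55.98 for 5xFAD shRTP801 mice (SD, n = 5), and all ranges overlapped.

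**Figure D5:**
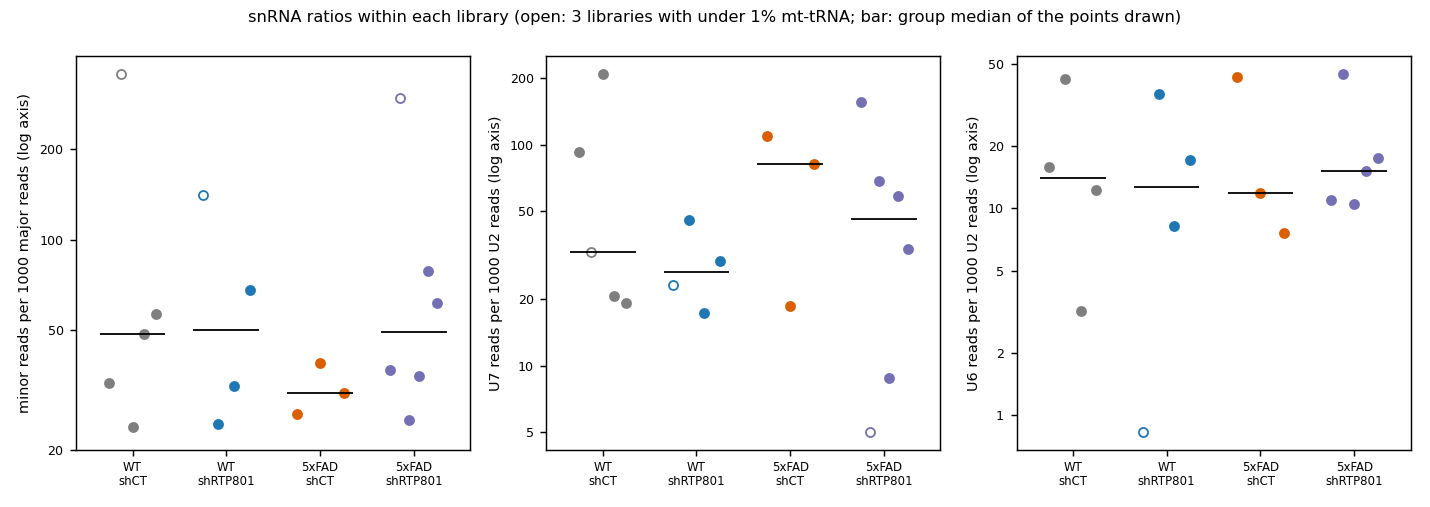
Reads of the minor members per 1000 reads of the major members, of U7 per 1000 U2 and of U6 per 1000 U2 in each library, on log axes, with bars for the median of the points drawn and open points for the 3 libraries with under 1% mt-tRNA. Mice 5 and 7 have no U6 point because they held 0 Rnu6 reads. The minor to major ratio lies between 23.8 and 78.7 in the 15 filled points, while the U7 and U6 ratios spread 23.9-fold and 14.03-fold.

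Small Cajal body RNAs and a few small nucleolar RNAs guide the chemical modification of the spliceosomal snRNAs. Of 12 such entries, 7 passed the filter, and 0 of 7 were called by limma in each of the 4 comparisons and the interaction, where edgeR and DESeq2 called 0 of all 1381 entries. At an unadjusted p under 0.05 the count was 1 of 7 for 5xFAD shCT against WT shCT (3.19% of all entries) and 1 of 7 for the interaction (6.52%), and 0 for the rest. The 3 with the most reads were Scarna9 (mean 285 RPM), Snord67 (10.6 RPM) and Scarna2 (9.09 RPM). All 7 were fitted higher in 5xFAD shCT than in WT shCT mice and lower in 5xFAD shRTP801 than in 5xFAD shCT mice, with median log2 changes of 1.11 and -1.44. Of all entries, 67.3% and 57.1% were fitted in these directions, with medians of 0.84 and -0.25. Scarna2 was the entry under 0.05 in the first comparison, with a log2 change of 2.97 ± 1.29 (SE) and an adjusted p of 0.521.

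The entries outside the 10 that ranked the mice most like the sum of U1, U2, U5 and U6 were Gm24497, Gm24525 and Gm26316, with Spearman's rho of 0.983, 0.983 and 0.977 over 18 mice. All are listed as snRNA genes, and over the 15 libraries rho was 0.971, 0.975 and 0.961. The reads of Gm24497 and Gm26316 differed from those of Rnu2-10 by 5.03% and 12.4%, outside the 5% within which entries were counted as copies. For Rnu7 they were Gm22888, Gm26109 and Gm24105, with rho of 0.936, 0.921 and 0.915 over 18 mice and 0.893, 0.864 and 0.857 over 15. These were chosen as the highest of all entries, and the points share the make-up and depth of each library, so the values are a description.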

How the data were processed

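Hydro-tRNA-seq was performed on the 60 to 100 nucleotide RNA of 18 hippocampal samples, with 50 base pair paired-end reads. Reads were counted with tRAX by the authors, and the deposited signal is the count after division by a size factor of the library. The processing notes name the build mm39, and a version of tRAX is not given in the sources used here. In each library 100% of the values came out whole, within 0.001, when divided by the value of 1 read, and the reads were recovered in this way. Entries whose reads differed by at most 5% from those of another were counted once (324 left out).

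Groups were taken from the sample labels. Reads per 1000000 reads of the library (RPM) plus 0.5 were compared on the log2 scale with limma 3.58.1 in R 4.3.3 for the 1381 entries with a mean of at least 1 RPM, with Benjamini-Hochberg adjustment over all of them and a threshold of 0.05; the edgeR 4.0.16 quasi-likelihood test and DESeq2 1.42.0 were run on the recovered reads. EdgeR and DESeq2 used their own normalization factors, so their log2 changes differ from those of limma in the scaling of the libraries too. The pseudocount of the limma fit understates changes of low entries. The procedure was tested on simulated data in which no library stood apart. That test does not show which snRNA changes could be detected here. Sums and ratios over snRNAs had no test. All 10 snRNAs are named, with the 3 most abundant guide RNAs and the 3 entries with the highest Spearman correlation. The snRNAs, lists and tests were chosen with earlier results of these data known. Alternatives were other pseudocounts (0.1 and 5 RPM), filters (none and 10 RPM), the deposited values, reads on other small RNA genes as the total, all copies counted, a mean-variance trend, RIN as a covariate, and leaving out each mouse. No snRNA sequence or coordinate was used here. The label mouse numbers gave the replicates. The p-values of limma weigh a difference of group means against the spread between mice within groups, pooled over the 4 groups.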

Additional observations from a re-analysis of the deposited data

Results flagged for a closer look

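In groups of 4 to 6 mice, single mice lay far below the rest of their group for 7 of the 10 snRNAs and for their sum, and all of these were 1 of the 3 libraries with under 1% mt-tRNA. Chance alone flags about 1 in 20 groups. In WT shCT mouse 5 these were Rnu1b1 and Rnu1b6, both at 0.101 RPM, and Rnu2-10 at 4.64 RPM. In WT shRTP801 mouse 4 they were Rnu1a1 at 15.4 RPM, Rnu1b1 at 5.45, Rnu2-10 at 66.3, Rnu5g at 2.42, Rnu7 at 1.54 and the sum of the snRNAs at 112 RPM. In 5xFAD shRTP801 mouse 7 they were Rnu1a1 at 5.84 RPM, Rnu1b1 at 0.477, Rnu1b6 at 0.743, Rnu2-10 at 21.2, Rnu5g at 0.212, Rnu6-ps2 at 0 and the sum at 36.9 RPM. The 5xFAD shCT group, with 3 mice, was too small for this check.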

How the results depend on the processing

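The count of snRNAs past the threshold was 0 in all 4 comparisons and the interaction under every alternative run (edgeR, DESeq2 and leaving out each mouse included), and the lowest adjusted p of any snRNA was 0.139, for the interaction without the 3 libraries with under 1% mt-tRNA. Against the reads on other small RNA genes, the log2 ratio of the summed level turned to -0.090 for WT shRTP801 against WT shCT and to 0.30 for 5xFAD shRTP801 against WT shRTP801. On that scale Rnu11 and Rnu12 turned to -0.041 and -0.46 for 5xFAD shCT against WT shCT, and Rnu12 to 0.58 for 5xFAD shRTP801 against 5xFAD shCT. With 1 mouse left out, the minor to major log2 ratio ran from -0.67 to 0.45 for WT shRTP801 against WT shCT, above 0 without WT shCT mouse 5 (0.45) or WT shRTP801 mice 10 (0.18) and 17 (0.036). It ran from -0.27 to 0.67 for 5xFAD shRTP801 against WT shRTP801, below 0 without WT shRTP801 mice 10 (-0.18) and 17 (-0.036) or 5xFAD shRTP801 mouse 7 (-0.27). It ran from -1.26 to -0.28 for 5xFAD shCT against WT shCT and from 0.46 to 1.17 for 5xFAD shRTP801 against 5xFAD shCT. The cause was not tested. No paired analysis was possible because each mouse number occurs in 1 group only. Rnu11 had at most 117 reads in a library, so its changes rest on few reads.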
